A study of Mus musculus with 10 samples.

Results

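The nuclear-encoded genes of oxidative phosphorylation were examined in the uterus of HSD17B1TG and WT mice. Members were the protein-coding genes whose symbols begin with Nduf and one of the letters a, b, c, s or v before a digit, with Sdh (a to d), Uqcr, Cox4 to Cox8 or Atp5. The rule used names alone and no measured value, and it found 82 of the 29268 genes in the table. By the complex in which the protein works, 35 members belonged to complex I, 4 to complex II, 8 to complex III, 18 to complex IV and 17 to complex V. Ndufa4 and Ndufa4l2 carry complex I names but were placed with complex IV.

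The data were bulk RNA-seq of the uterus of 5 HSD17B1TG and 5 WT female mice aged 4 months, each sequenced as a library of its own. HSD17B1TG mice are an FVB/N line that carries the human HSD17B1 cDNA, the enzyme that converts estrone to estradiol, behind the chicken beta actin promoter with a CMV enhancer, so that the transgene is active throughout the body. The line is kept heterozygous. Genotype and estrous state cannot be told apart here, because the WT mice were not staged and the transgenic females are acyclic. Mice are called TG1 to TG5 and WT1 to WT5 by ascending animal number, and equal numbers do not pair mice. The expression of the human transgene was not analysed here.

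Oxidative phosphorylation takes electrons from NADH at complex I and from succinate at complex II, passes them through complex III to oxygen at complex IV, and uses the proton gradient that results to make ATP at complex V. Most subunits are encoded in the nucleus and imported, and a small set in complexes I, III, IV and V is encoded by the mitochondrial genome, so the products of both genomes meet in the same complexes. Several subunits of complex IV have a widespread form and a form restricted to certain tissues or conditions, such as muscle, testis, lung or low oxygen.

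Sequencing depth, as counts summed over genes, ranged from 14817228 to 23271988. Markers of epithelium (Epcam, Krt8), smooth muscle (Acta2, Myh11) and stroma (Dcn, Col3a1) were present in every mouse. The mixture differed between mice. The summed FPKM (fragments scaled to gene length and depth) of 6 smooth muscle markers lay between 839.5 and 7210 in HSD17B1TG and between 401.1 and 5689 in WT. All 6 were higher in HSD17B1TG by value (4 without TG1), and 0 passed in edgeR, DESeq2 or voom or at an unadjusted p under 0.05. That of 6 epithelial markers lay between 551.3 and 2535 in HSD17B1TG and between 368.9 and 1381 in WT. All 6 were higher in HSD17B1TG by value, with a median log2 fold change of 1.24, and 0 passed in edgeR. The unadjusted p was under 0.05 for 6, DESeq2 called 3, voom called 5, and edgeR called 4 without TG1 or WT4. All 6 stromal markers were lower in HSD17B1TG, 4 of them past an adjusted p of 0.05 in edgeR. The 4 became 0 without TG5, 1 without TG2 or WT5 and 2 without TG4, WT2 or WT3, and 3 with TG5 and WT4 left out together, when 5 of the 6 were lower. The summed FPKM of these markers lay between 350.6 and 1269 in HSD17B1TG and between 1475 and 1793 in WT. That of 8 leucocyte markers lay between 68.0 and 148.4 in HSD17B1TG and between 31.96 and 44.3 in WT, with no overlap. Of the 5 leucocyte markers tested, Cd68 and Itgam, of macrophages and other myeloid cells, rose past the threshold (adjusted p of 0.0269 and 0.0279 in edgeR), and 0 were called without TG2, TG4, TG5, WT1, WT2, WT3 or WT5. The list was mixed, with 3 of the 5 higher and 2 lower by value. Ptprc, the pan-leucocyte marker, had 0.939 ± 0.211 FPKM in HSD17B1TG and 1.98 ± 0.794 in WT (adjusted p = 0.0558 in edgeR, 0.00962 in DESeq2). Across all genes tested, edgeR called 6.16%, DESeq2 17.3% and voom 19.3% in either direction. At an unadjusted p under 0.05, 14.7% of all genes were higher and 11.4% lower. In whole tissue, fewer cells of a type and less RNA per cell cannot be told apart, and the part of the cell mixture in the differences below was not tested.

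Of the 82 members, 80 passed the filter on low counts. Cox8a, which encodes a small subunit of complex IV, had the highest level per length, and Ndufa2, Sdhd, Uqcr10 and Atp5a1 had the highest in complexes I, II, III and V. The mean FPKM was 543 ± 83.3 (SD, n = 5) in HSD17B1TG and 412 ± 103 in WT for Cox8a, 137 ± 44.0 and 128 ± 12.7 for Ndufa2, and 109 ± 20.6 and 93.0 ± 15.8 for Sdhd. It was 159 ± 25.3 and 132 ± 26.9 for Uqcr10, and 206 ± 24.99 and 218 ± 44.6 for Atp5a1, which encodes the alpha subunit of the ATP synthase. All members together had a summed FPKM of 6147 ± 760 in HSD17B1TG and 5749 ± 833 in WT. Their share of all counts was 0.876% ± 0.0604 for HSD17B1TG and 0.957% ± 0.0914 for WT, so the group that was higher depended on the scale.

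Promoter sequence is shown for 4 members as examples. Ndufa11 and Cox8a are members with higher values in HSD17B1TG, and Cox6b1 and Cox6b2 are the widespread and the restricted form of the same complex IV subunit, with values on opposite sides. The windows are from RefSeq on GRCm38.p6 and run 5′ to 3′ on the strand of the gene from 250 bases before the annotated start to 30 bases after it. Capitals mark the letters CGCANGCG (the core bound by NRF1) or CCGGAAG (the core of ETS factors such as GABPA) on either strand. NRF1 and GABPA are textbook regulators of nuclear genes for the respiratory chain.
Ndufa11, chr17:56717512-56717791, plus strand: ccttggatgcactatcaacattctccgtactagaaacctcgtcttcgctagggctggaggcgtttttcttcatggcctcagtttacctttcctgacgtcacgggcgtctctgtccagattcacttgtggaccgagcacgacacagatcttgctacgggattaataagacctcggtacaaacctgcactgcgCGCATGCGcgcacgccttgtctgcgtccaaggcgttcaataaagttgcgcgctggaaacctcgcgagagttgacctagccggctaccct
Cox8a, chr19:7217587-7217866, minus strand: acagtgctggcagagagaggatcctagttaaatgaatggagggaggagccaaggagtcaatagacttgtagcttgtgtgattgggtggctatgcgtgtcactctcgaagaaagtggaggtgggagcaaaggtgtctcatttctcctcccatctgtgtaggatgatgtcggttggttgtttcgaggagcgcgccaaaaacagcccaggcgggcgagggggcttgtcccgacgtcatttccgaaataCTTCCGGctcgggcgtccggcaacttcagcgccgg
Cox6b1, chr7:30626085-30626364, minus strand: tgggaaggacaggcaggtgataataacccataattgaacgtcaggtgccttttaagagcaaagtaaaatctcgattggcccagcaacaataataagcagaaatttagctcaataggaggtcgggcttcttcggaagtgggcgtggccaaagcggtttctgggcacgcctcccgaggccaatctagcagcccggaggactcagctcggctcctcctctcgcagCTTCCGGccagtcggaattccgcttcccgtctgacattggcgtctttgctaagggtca
Cox6b2, chr7:4753065-4753344, minus strand: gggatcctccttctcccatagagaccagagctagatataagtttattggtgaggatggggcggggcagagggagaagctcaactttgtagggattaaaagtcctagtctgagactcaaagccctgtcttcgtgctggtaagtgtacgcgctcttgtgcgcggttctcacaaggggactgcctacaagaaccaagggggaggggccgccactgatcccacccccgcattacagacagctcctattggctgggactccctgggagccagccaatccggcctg
The Ndufa11 window held the NRF1 letters, those of Cox8a and Cox6b1 held the ETS letters, and that of Cox6b2 held neither. The windows of the restricted Cox7a1 and Cox8b also held neither, and so did those of the widespread Cox7a2 and Ndufa4.

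RefSeq windows of 300 bases were matched for 65 of the 82 members, with 70 windows in all. The NRF1 letters were in 40% of the member windows and in 8.21% of all 32851 windows. The ETS letters were in 22.9% of the member windows and in 8.86% of all. The letters AAGATGGC (the core bound by YY1) were in 12.9% and 2.75%, and CAAGGTCA (a site of ERRA, the estrogen-related receptor alpha) in 5.71% and 1.56%. Both strands were searched, and the 4 sets of letters were counted separately whether or not they overlapped. A match of letters is a description and not a bound site. Among members with large differences, the window of Cox5a held none of the 4, that of Ndufs7 held the YY1 letters, and that of Ndufb7 held the ETS letters.

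No member passed an adjusted p of 0.05 in edgeR's quasi-likelihood test, against 6.16% of the 16993 genes tested in either direction. The smallest adjusted p of a member was 0.0549 (Cox6c). At an unadjusted p under 0.05, 5 of the 80 were higher in HSD17B1TG, against 14.7% of all genes, and 4 were lower, against 11.4% of all genes. The 5 were Ndufa11, Ndufs7, Ndufb7, Ndufa13 and Cox8a, of which Ndufa13 is named after its value was seen, and the 4 were Cox6c, Cox6b2, Ndufa4l2 and Cox4i2. DESeq2 called 4 members (Ndufa11 higher, Cox6c, Cox6b2 and Ndufa4l2 lower), against 17.3% of all genes to which it gave an adjusted p. The voom method with quality weights called 4 (Ndufa11 and Cox8a higher, Cox6c and Ndufa4l2 lower), against 19.3% of all genes. The study's other 2 thresholds were more than 2-fold and an average above 1 FPKM in either group. With these added, the number was 2 in DESeq2, the test that the study used, against 9.35% of all genes. It was 0 in edgeR, against 4.24%, and 1 with voom, against 10.3%.

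The members differed less between the groups than most genes did. The median log2 fold change, HSD17B1TG over WT, was 0.06 for the members and 0.00 for all genes tested, and the median of its size without the sign was 0.12 for the members and 0.35 for all genes. The 95% interval lay within a 2-fold change on either side for 72 of the 80 members, against 48.8% of all genes, and within a 1.5-fold change for 59, against 23.2% of all genes. The members were also measured more precisely, with a median SE of 0.16 against 0.28 for all genes. By values, 51 members were higher in HSD17B1TG and 29 lower. When counts were scaled by library totals alone, 18 were higher and 62 lower, and the median moved to -0.13 for the members and -0.17 for all genes, so the side of 0 for small differences rests on the scaling. It also rested on single mice, with 34 higher and 46 lower without TG5, 40 and 40 without WT1 and 61 and 19 without WT4. The FPKM of 1 member, Ndufs7, lay higher in every HSD17B1TG mouse than in any WT mouse, against 4.04% of all genes, and 0 members lay lower in every HSD17B1TG mouse, against 2.65% of all genes.

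**Figure D1:**
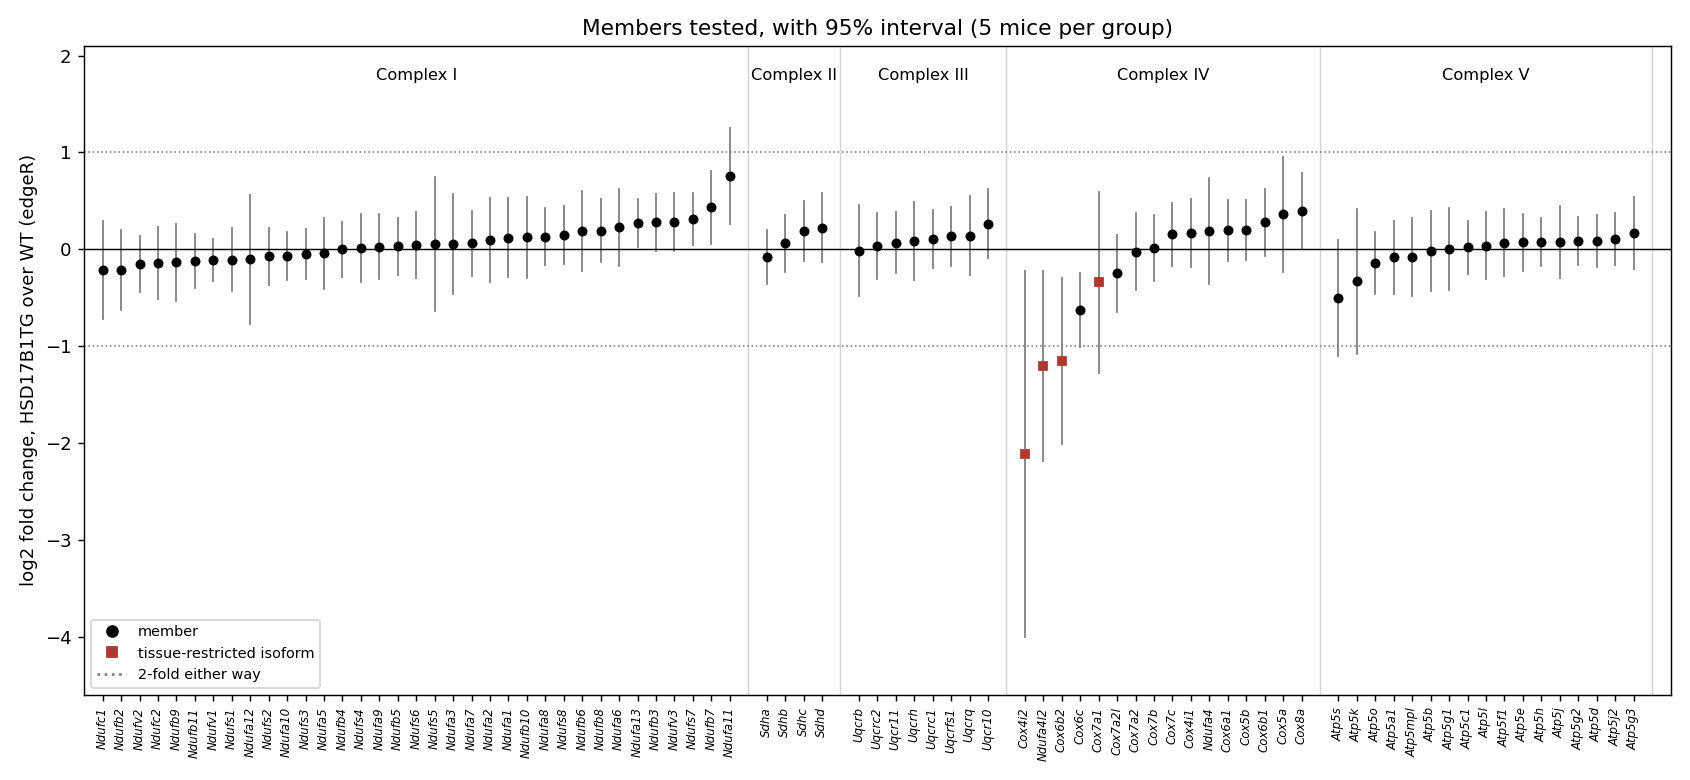
Log2 fold change of each of the 80 members tested (vertical axis; HSD17B1TG over WT, edgeR, 5 mice per group) with its 95% interval, ordered by value within complexes I to V. Red squares are tissue-restricted isoforms and dotted lines mark a 2-fold change; 72 intervals stay between the dotted lines, and 3 of the 4 red squares lie below the lower one.

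Complex I, the NADH dehydrogenase, had a median log2 fold change of 0.05 over its 35 members, from -0.22 (Ndufc1) to 0.76 (Ndufa11). Of these, 21 were higher by value (9 under library totals alone). Without TG5 there were 13, with a median of -0.06, without WT1 14, with a median of -0.04, and without WT4 26, with a median of 0.14. The median was also at -0.01 without WT2 or WT5. The summed FPKM was 1696 ± 237 in HSD17B1TG and 1596 ± 195 in WT. The 7 core subunits, among them those with the flavin and the iron-sulphur clusters, had a median of -0.07, and the other 28 had one of 0.06.

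Ndufa11, a membrane subunit of complex I, had the largest positive difference of all members. Its FPKM was 74.8, 87.0, 94.8, 58.1 and 107 in TG1 to TG5 and 55.3, 42.7, 35.8, 74.8 and 40.7 in WT1 to WT5. Both groups overlapped, with TG4 low in its group and WT4 high in its own. The log2 fold change was 0.76 ± 0.22 (SE), with an adjusted p of 0.0652. It ranged from 0.63 to 0.95 as each mouse was left out, and the adjusted p reached 0.0156 without WT4. The gene lies on chromosome 17 from 56717767 to 56722141 (GRCm38, plus strand) and overlaps Vmac on the other strand, but their annotated transcripts share no stretch of 75 bases.

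Ndufs7, a core subunit with an iron-sulphur cluster, had an FPKM of 36.2, 35.9, 38.7, 37.0 and 48.1 in TG1 to TG5 and of 35.7, 26.9, 31.0, 33.8 and 29.8 in WT1 to WT5. The lowest HSD17B1TG mouse was barely above the highest WT mouse. On the log2 scale, the fold change was 0.31 ± 0.12 (SE), with an adjusted p of 0.138. Ndufb7, an accessory subunit, had 16.7 ± 4.55 FPKM in HSD17B1TG and 12.3 ± 1.19 in WT (log2 fold change 0.43 ± 0.17, adjusted p = 0.137), and TG5 was far above the other mice. Without TG5, its log2 fold change was 0.25. Ndufa13 had 71.7 ± 6.95 FPKM in HSD17B1TG and 59.2 ± 6.24 in WT (log2 fold change 0.27 ± 0.11, adjusted p = 0.159), and 25.6% of its k-mers (75 bases) also occur in Tssk6, which overlaps it on the other strand. Under library totals alone, the log2 fold changes of Ndufs7, Ndufb7 and Ndufa13 were 0.13, 0.25 and 0.10. In contrast to these, Ndufv1, the flavin subunit, had a log2 fold change of -0.11 ± 0.10.

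Complex II, the succinate dehydrogenase that is also an enzyme of the tricarboxylic acid cycle, is encoded by the nucleus alone. Its 4 members had log2 fold changes of -0.08 (Sdha), 0.06 (Sdhb), 0.19 (Sdhc) and 0.22 (Sdhd), and the smallest adjusted p was 0.419. The 2 catalytic subunits, Sdha and Sdhb, thus lay below the 2 membrane anchors by value. All 4 intervals stayed within a 1.5-fold change.

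Complex III, the cytochrome c reductase, had a median of 0.10 over 8 members, 7 of them higher by value (1 under library totals alone, and from 5 to 8 as each mouse was left out). Uqcr10, a small subunit, had the largest difference, with a log2 fold change of 0.27 ± 0.16 and an adjusted p of 0.319. The Rieske protein Uqcrfs1 had 77.2 ± 11.3 FPKM in HSD17B1TG and 70.2 ± 9.99 in WT. Uqcrb lay at -0.01 ± 0.21.

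Complex V, the ATP synthase, had a median size of the log2 fold change of 0.08 over 17 members, the smallest of the 5 complexes. The catalytic beta subunit Atp5b had 167 ± 31.3 FPKM in HSD17B1TG and 169 ± 35.4 in WT. The 3 genes for subunit c of the rotor, Atp5g1, Atp5g2 and Atp5g3, encode the same mature protein. Their log2 fold changes were 0.00, 0.08 and 0.17, and the smallest adjusted p of the 3 was 0.565. Of the k-mers (75 bases) of the Atp5g2 transcripts, 35.8% also occur in transcripts of other annotated genes, so its level is less certain. Atp5s, a coupling factor that is no structural subunit, was at the lower end with 3.59 ± 0.641 FPKM in HSD17B1TG and 5.07 ± 1.80 in WT (log2 fold change -0.50 ± 0.27, adjusted p = 0.272).

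Complex IV, the cytochrome c oxidase, had the widest spread. Its 16 tested members ran from -2.12 to 0.40, and 11 of the 16 intervals stayed within a 2-fold change. The restricted isoforms lay at the low end. Without the restricted isoforms, the median was 0.18 over 12 members, 9 of them higher by value (6, with a median of 0.00, under library totals alone). As each mouse was left out, this median ran from 0.08 without TG5 to 0.28 without WT4. The summed FPKM of the complex was 2137 ± 271 in HSD17B1TG and 1915 ± 304 in WT.

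Cox6c, a widespread small subunit, had the smallest p of all members. Its FPKM was 62.3, 55.6, 55.9, 56.9 and 72.0 in TG1 to TG5 and 67.8, 118, 108, 79.7 and 91.7 in WT1 to WT5. TG5 alone reached above the lowest WT mouse, WT1. The log2 fold change was -0.62 ± 0.17 (SE), a ratio of 0.649, with an adjusted p of 0.0549. The adjusted p was 0.0313 under library totals alone, 0.0467 without the mitochondrially encoded genes and 0.0358 without WT4, and reached 0.122 without TG2. The gene lies on chromosome 15 from 35925886 to 35938246 (minus strand) and overlaps Vps13b on the other strand, with which it shares 6.67% of its k-mers together with 1 more gene.

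Cox8a had an FPKM of 503, 512, 496, 511 and 691 in TG1 to TG5 and of 397, 342, 355, 593 and 373 in WT1 to WT5. WT4 lay within the HSD17B1TG values, and the other WT mice lay below all of them. Its log2 fold change was 0.40 ± 0.18, with an adjusted p of 0.189 that became 0.0313 without WT4. Cox5a, a subunit on the matrix side, had 39.7 ± 13.7 FPKM in HSD17B1TG and 30.8 ± 10.7 in WT (log2 fold change 0.36 ± 0.27, adjusted p = 0.430), with TG3 and WT4 the highest of their groups. Its log2 fold change was 0.13 without TG3, 0.56 without WT4, 0.23 without WT5 and 0.21 (0.22 for Cox8a) under library totals alone. Cox6b1 had 209 ± 38.1 and 172 ± 30.6 (log2 fold change 0.28 ± 0.16, adjusted p = 0.293), with a log2 fold change of 0.16 without TG5 and 0.10 under library totals alone.

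The 6 restricted isoforms among the members were Cox4i2, Cox6a2, Cox6b2, Cox7a1, Cox8b and Ndufa4l2, and 4 passed the filter. All 4 were lower in HSD17B1TG by value, also under library totals alone, with a median log2 fold change of -1.18, and 0 passed the adjusted threshold in edgeR. At an unadjusted p under 0.05, 3 of the 4 were lower, against 11.4% of all genes. DESeq2 called 2, against 17.3% of all genes, and voom called 1, against 19.3%.

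Cox4i2 encodes the form of subunit 4 known from lung and other oxygen-sensing tissue. Its FPKM was 1.84, 2.33, 0.607, 1.02 and 0 in TG1 to TG5 and 1.76, 4.28, 11.96, 1.23 and 6.07 in WT1 to WT5. TG5 had 0 counts, which allows a level of up to 0.245 FPKM. WT1 and WT4 lay within the HSD17B1TG values. Its log2 fold change was -2.12 ± 0.86, with an adjusted p of 0.148. The widespread Cox4i1 had 239 ± 38.8 FPKM in HSD17B1TG and 212 ± 31.3 in WT, far above it.

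Ndufa4l2 is induced by low oxygen and stands beside Ndufa4, a subunit of complex IV. Its FPKM was 3.97, 1.89, 1.41, 2.66 and 1.53 in TG1 to TG5 and 3.83, 4.90, 10.3, 2.21 and 5.08 in WT1 to WT5. WT3 was the highest, and WT1 and WT4 again lay among the HSD17B1TG mice. The log2 fold change was -1.21 ± 0.44, with an adjusted p of 0.117 in edgeR and 0.0481 in DESeq2. Ndufa4 had 149 ± 38.4 and 130 ± 49.9 FPKM. Ndufa4l2 overlaps Shmt2 on the other strand, and their annotated transcripts share no stretch of 75 bases.

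Cox6b2, first described from testis, had an FPKM of 10.3, 8.72, 6.43, 6.44 and 5.05 in TG1 to TG5 and of 9.43, 12.8, 20.0, 7.82 and 31.7 in WT1 to WT5. WT1 and WT4 overlapped the HSD17B1TG mice. The log2 fold change was -1.16 ± 0.39, with an adjusted p of 0.0928 in edgeR and 0.0308 in DESeq2, and of 0.0387 in edgeR without WT4.

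Cox7a1, the form of heart and skeletal muscle, had 2.38 ± 1.48 FPKM in HSD17B1TG and 3.002 ± 0.841 in WT (log2 fold change -0.34 ± 0.42, adjusted p = 0.650), and its log2 fold change ran from -0.79 without TG5 to -0.19 without TG1. Cox6a2 and Cox8b, also of muscle, did not pass the filter. Cox6a2 had 14 counts over all 10 mice and 0 in 5 of them. Cox8b had 83 counts, with an FPKM of 2.68, 1.597, 0.443, 1.72 and 0.892 in TG1 to TG5 and of 0.339, 1.17, 0, 1.08 and 2.44 in WT1 to WT5. The 0 in WT3 allows up to 0.517 FPKM, and the groups overlapped widely.

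**Figure D2:**
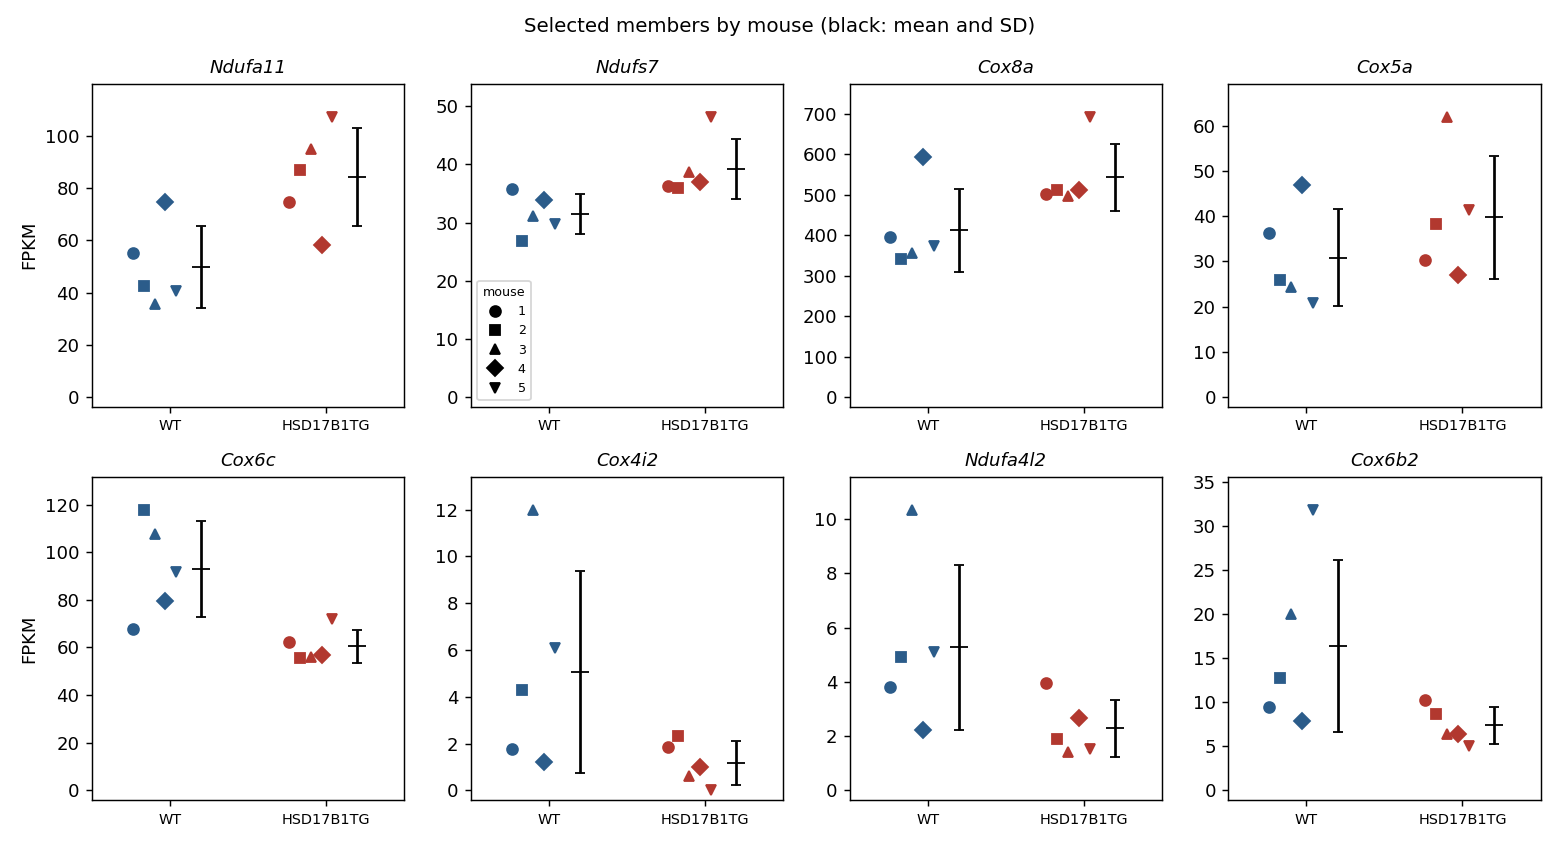
FPKM (vertical axes, linear) of 8 members in each mouse, WT in blue and HSD17B1TG in red, with one symbol per mouse number (numbers do not pair mice) and the group mean and SD in black. Ndufs7 alone of the 8 has groups that do not overlap, and WT4 lies near the HSD17B1TG mice for Ndufa11, Cox8a, Cox4i2, Ndufa4l2 and Cox6b2.

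The share of an isoform in the summed FPKM of its pair is free of the scaling between mice. Cox6b2 made up 3.57% ± 1.39 (SD, n = 5) of the pair with Cox6b1 in HSD17B1TG against 8.97% ± 5.58 in WT, with p = 0.0397 by a two-sided exact permutation test. Ndufa4l2 made up 1.67% ± 1.04 of its pair with Ndufa4 in HSD17B1TG and 4.44% ± 2.94 in WT (exact permutation test, p = 0.0556). Cox4i2 made up 0.515% ± 0.423 of its pair with Cox4i1 in HSD17B1TG and 2.33% ± 1.76 in WT (exact permutation test, p = 0.0635). After Benjamini-Hochberg adjustment over the 8 shares tested, each of the 3 had an adjusted p of 0.169 by the exact permutation test, so none passed. The smallest p that 5 mice against 5 can give is 0.00794, with which a single share alone could not pass the adjusted threshold.

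The groups overlapped in all 3 shares. For Cox6b2, TG1 to TG5 had 5.35%, 4.56%, 2.96%, 3.18% and 1.81%, and WT1 to WT5 had 5.26%, 7.66%, 11.1%, 3.36% and 17.5%. WT3 and WT5 carried most of the difference, and WT1 and WT4 lay among the HSD17B1TG mice. As each mouse was left out, the difference of Cox6b2 ran from -6.806 to -3.265 percentage points, and its exact permutation p reached 0.111. That of Ndufa4l2 was -2.775 with all mice and ran from -3.635 to -1.618. That of Cox4i2 was -1.809 and ran from -2.259 to -1.193. The share of Cox7a1 in its pair with Cox7a2 was 2.75% ± 0.952 in HSD17B1TG and 3.64% ± 1.04 in WT (exact permutation test, p = 0.183). That of Cox8b in its pair with Cox8a was 0.279% ± 0.178 and 0.252% ± 0.256 (exact permutation test, p = 0.825). Within the 3 subunit c genes, Atp5g2 and Atp5g3 made up 47.1% ± 3.56 and 45.4% ± 2.50 in HSD17B1TG and 48.2% ± 4.28 and 43.6% ± 3.63 in WT, with Atp5g1 taking the rest and all 3 exact permutation p-values at or above 0.373.

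**Figure D3:**
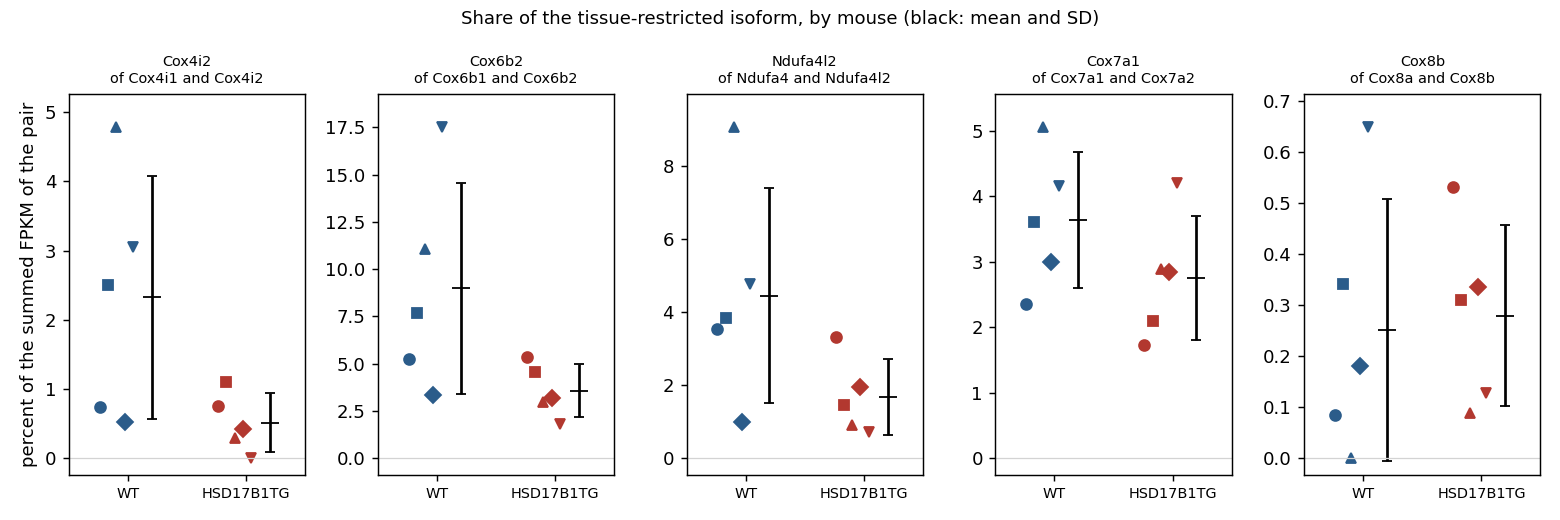
Percent of the summed FPKM of a pair that the restricted isoform takes (vertical axes, a scale for each panel) in each WT (blue) and HSD17B1TG (red) mouse, with the group mean and SD in black. The 3 panels at the left show lower means in HSD17B1TG with overlapping mice, and the Cox8b panel shows means of 0.279% and 0.252%.

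Most markers of vessel cells, like those of stroma, were on the same side as the restricted isoforms by value. Of 6 pericyte markers, 5 were lower in HSD17B1TG by value (3 without TG5 or without WT5). None passed the adjusted threshold in edgeR, against 6.16% of all genes. There were 2 at an unadjusted p under 0.05, against 11.4% of all genes that were lower. DESeq2 called 1, against 17.3%, and voom 1, against 19.3%. EdgeR called 1 without TG1, against 12.1%, 2 without WT4, against 13.8%, and 2 with TG5 and WT4 left out, against 9.19%. The summed FPKM of the pericyte markers lay between 23.8 and 59.1 in HSD17B1TG and between 47.7 and 111 in WT, with WT3 the highest and WT4 the lowest WT mouse, and no marker was at 0 in any mouse. Rgs5, the marker with the smallest p, had 17.5 ± 6.36 and 47.6 ± 26.3 FPKM (adjusted p = 0.0555 in edgeR). Of 5 endothelial markers, 5 were lower by value and 0 passed in edgeR (2 at an unadjusted p under 0.05, 0 in DESeq2, 2 with voom), with summed FPKM between 16.8 and 72.9 in HSD17B1TG and between 45.9 and 105 in WT. The part of these cells in the isoform levels was not tested. The 4 skeletal muscle markers found had summed FPKM of 19.6 ± 14.5 and 38.7 ± 27.1, and 0 were called in edgeR, DESeq2 or voom or had an unadjusted p under 0.05. Of 3 cardiac muscle markers tested, 0 passed in edgeR, with 1 at an unadjusted p under 0.05, 1 in DESeq2 and 1 with voom. Of 2 brown adipocyte markers tested, Cidea rose from 0.185 ± 0.182 to 1.90 ± 1.17 FPKM (adjusted p = 0.0322 in edgeR), and the other, Ppargc1a, had an adjusted p of 0.206. With TG2, TG4, TG5, WT1, WT2, WT3 or WT5 left out, each in turn, 0 of the 2 passed. Of 5 white adipocyte markers, 1 was tested (Fabp4, adjusted p = 0.144 in edgeR), and their summed FPKM lay between 3.19 and 38.2 in HSD17B1TG, highest in TG4, and between 0.166 and 9.97 in WT. Of 2 markers of oviduct and ciliated cells, 1 was tested (Ovgp1, adjusted p = 0.534 in edgeR).

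Most hypoxia-induced genes were on the other side from Ndufa4l2 by value. Of 15 such genes, 11 were higher in HSD17B1TG by value and 1, the demethylase Kdm3a, rose past the adjusted threshold (10.6 ± 1.89 against 6.37 ± 1.18 FPKM, adjusted p = 0.0366), a call that was kept without TG1, TG3 or WT4 and lost without any other mouse (adjusted p at most 0.0946). The 1 call in edgeR stood against 6.16% of all genes in either direction. At an unadjusted p under 0.05, 8 were higher, against 14.7% of all genes, and 2 lower, against 11.4%. DESeq2 called 5 higher and 2 lower, against 17.3% of all genes in either direction, and voom 8 higher and 1 lower, against 19.3%. In edgeR, 7 were called higher and 1 lower without WT4, against 13.8%, and 6 higher and 1 lower without TG5 and WT4 together, against 9.19%. Hilpda, a lipid droplet protein, was on the side of Ndufa4l2 with 5.85 ± 0.775 and 11.9 ± 6.04 FPKM (adjusted p = 0.0767).

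The level of the members as a whole differed from mouse to mouse. The mean deviation of the 80 members from the 10-mouse mean, on the scale of log2 CPM (counts scaled to depth), was -0.04, -0.09, -0.04, -0.08 and 0.23 in TG1 to TG5 and -0.14, -0.06, 0.07, 0.24 and -0.10 in WT1 to WT5. TG5 and WT4 stood above the rest of their groups. TG5 had the highest value of its group for 59 of the 80 members, and WT4 for 61. The spread within each group was far larger than the difference of the group means of -0.01. The epithelial marker list was also highest in TG5, at 1.46, and was at 0.16 in WT4, the highest of the WT mice. The smooth muscle list was at -1.08 in TG5, the lowest of its group, and at 1.56 in WT4, the highest of its group, and the part of either in the members' levels was not tested. With both mice left out, an alternative chosen after seeing the data, 3 of 81 members were called in edgeR (Ndufa11 and Cox8a higher, Cox6c lower), against 9.19% of all genes in that fit.

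The 13 mRNAs that the mitochondrial genome encodes, partners of these members in complexes I, III, IV and V, had another pattern. All 13 were higher in HSD17B1TG by value, with a median log2 fold change of 0.81, and 0 passed the adjusted threshold in edgeR. The median was 0.60 under library totals alone, 0.51 without TG5 and 0.22 with voom, where 12 were higher and 1 lower. At an unadjusted p under 0.05 there were 4, against 14.7% of all genes that were higher. DESeq2 called 4, against 17.3% of all genes in either direction, and voom called 1, against 19.3%. EdgeR called 2 without TG3, against 7.9%, and 1 without WT4, against 13.8%. The mean deviation was 0.73, -0.64, -0.46, 0.99 and 1.26 in TG1 to TG5 and -0.72, -0.18, -0.41, -0.15 and -0.41 in WT1 to WT5. TG1, TG4 and TG5 were thus above every WT mouse, and TG2 and TG3 were below 4 of the 5. The mitochondrial share of counts was 4.92% ± 2.56 for HSD17B1TG and 3.07% ± 0.321 for WT. For mt-Co2, a catalytic subunit of complex IV, the FPKM was 345, 130, 126, 390 and 387 in TG1 to TG5 and 95.6, 76.9, 125, 163 and 118 in WT1 to WT5 (log2 fold change 1.25 ± 0.36, adjusted p = 0.0627). Another core subunit of complex IV, mt-Co3, had 111 ± 55.0 and 52.1 ± 8.66 FPKM (adjusted p = 0.0665). Both were a small part of the list, whose summed FPKM was 42320 ± 23730 in HSD17B1TG and 23310 ± 3023 in WT. Sequence shared with other genes was examined for the members alone and not for these mRNAs. In TG1 and TG4, whose mitochondrial mRNAs were high, the nuclear-encoded members lay slightly below the 10-mouse mean, and in TG5 both were the highest of the group.

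**Figure D4:**
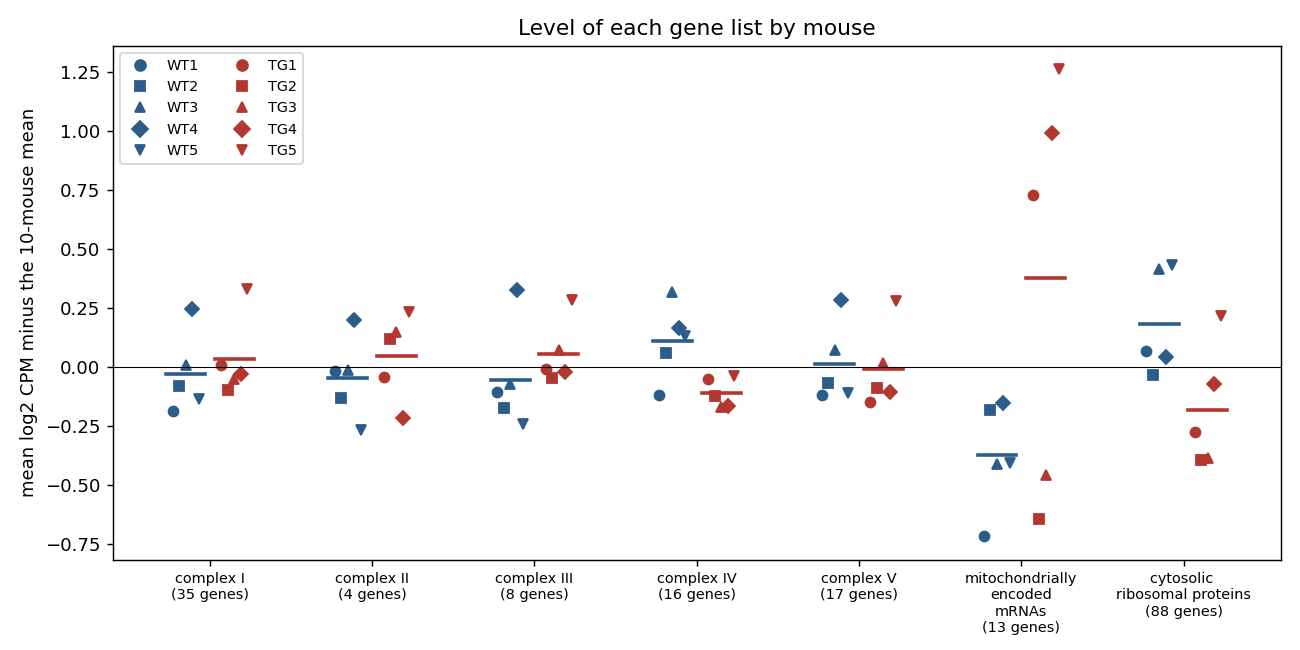
Mean log2 CPM of each gene list minus its 10-mouse mean (vertical axis), by mouse, for the 5 complexes, the 13 mitochondrially encoded mRNAs and 88 cytosolic ribosomal protein genes; blue is WT, red is HSD17B1TG, and bars are group means. The nuclear-encoded complexes stay between -0.27 and 0.33, whereas the mitochondrially encoded list runs from -0.72 to 1.26, with TG1, TG4 and TG5 at the top.

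Of 15 regulators of mitochondrial biogenesis tested, 10 were higher in HSD17B1TG by value and 5 lower. Their median log2 fold change was 0.04 (-0.14 under library totals alone). EdgeR called 2 higher, against 6.16% of all genes in either direction, DESeq2 3, against 17.3%, and voom 3, against 19.3%. Among these regulators, Esrra, which encodes the estrogen-related receptor alpha and is known to drive oxidative genes, rose in HSD17B1TG. Its FPKM was 27.7, 39.8, 35.7, 30.6 and 51.9 in TG1 to TG5 and 18.4, 13.4, 13.4, 22.6 and 12.3 in WT1 to WT5. The groups did not overlap. The log2 fold change was 1.21 ± 0.22 (SE), with an adjusted p of 0.0219, and the adjusted p was 0.00894 without TG5 and WT4 together. As each mouse was left out, the log2 fold change stayed between 1.06 and 1.37, and the call was lost without TG2, TG5, WT2, WT3 or WT5, with an adjusted p of at most 0.0593. Over all genes, the number called ranged from 76 to 2387 in these fits. One more of the 15 genes tested, Esrrb, was called, at under 1 FPKM in every mouse (0.137 ± 0.0265 and 0.0215 ± 0.0227), and kept its call only without TG1 or WT4 as each mouse was left out (adjusted p at most 0.101 without another mouse, and 0.0797 without TG5 and WT4 together). Ppargc1a, the coactivator that works with Esrra, had 1.37 ± 0.273 and 0.897 ± 0.341 FPKM and did not pass (adjusted p = 0.206).

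Whether targets of Esrra responded was not tested. A match of letters is not a bound site, and only 4 of the 65 matched members held the ERRA letters. The members whose promoter windows hold these letters had differences with sizes on either side of 0.12, the median size over all 80 members tested. These were Atp5g3, Atp5l, Ndufs5 and Sdhd, named for the letters and not for their values, with log2 fold changes of 0.17, 0.04, 0.06 and 0.22 and adjusted p-values of 0.565, 0.907, 0.927 and 0.419.

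Of 48 assembly factors, which build the complexes without being part of them, 1 passed the threshold, against 6.16% of all genes in either direction. Cox14, needed to make the mitochondrially encoded Co1 protein, rose from 65.8 ± 10.8 to 107 ± 23.3 FPKM (log2 fold change 0.70 ± 0.17, adjusted p = 0.0396), with no overlap between the groups. The call was kept without TG1, TG3 or WT4 and lost without any other mouse, with an adjusted p of at most 0.103. At an unadjusted p under 0.05, 3 factors were higher, against 14.7% of all genes, and 3 lower, against 11.4%. DESeq2 called 2 in each direction, against 17.3% of all genes in either direction, and voom 1 in each, against 19.3%. Ndufaf4, an assembly factor of complex I, had 5.83 ± 0.487 FPKM in HSD17B1TG and 8.40 ± 2.26 in WT, with no overlap between the groups (adjusted p = 0.0943 in edgeR, 0.0418 in DESeq2). Of 7 tested subunits and partners outside the name rule, 0 passed in edgeR, 1 at an unadjusted p under 0.05 and in both DESeq2 and voom. This was Higd2a, an assembly protein of complex IV, with 90.5 ± 15.7 and 59.8 ± 10.4 FPKM (adjusted p = 0.0509) and no overlap between the groups. EdgeR called Higd2a without TG1, against 12.1% of all genes, and without WT4, against 13.8%. Its adjusted p ran from 0.0321 to 0.1265 as each mouse was left out. With gene length offsets, 1 of the 7 was called, against 6.25%. Atpif1, the inhibitor of the ATP synthase, had 59.9 ± 15.6 and 49.2 ± 4.08 FPKM (adjusted p = 0.316).

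Other mitochondrial lists had medians near 0 in the main fit, as the members did. Under library totals alone the medians were -0.235 (tricarboxylic acid cycle), -0.199 (mitoribosomal proteins) and -0.242 (import and membrane proteins), beside -0.173 for all genes. That of the import list was also at -0.21 without TG3. Across all genes, edgeR called 6.16%, DESeq2 17.3% and voom 19.3%, and 14.7% were higher and 11.4% lower at an unadjusted p under 0.05. The 18 genes of the tricarboxylic acid cycle had a median of -0.07, with 0 called in edgeR, DESeq2 or voom and 1 (Dld) at an unadjusted p under 0.05. Dld, a subunit shared by several dehydrogenase complexes, had 23.8 ± 3.03 FPKM in HSD17B1TG and 28.9 ± 2.87 in WT (adjusted p = 0.159), and Idh3g, of isocitrate dehydrogenase, had 29.97 ± 1.84 and 34.5 ± 2.30 (adjusted p = 0.202). The 77 mitoribosomal protein genes had a median of -0.03 and 0 calls in edgeR, with 7 at an unadjusted p under 0.05 (3 higher, 4 lower), 2 in DESeq2 and 3 with voom. Mrpl3 had 5.84 ± 0.901 and 8.33 ± 1.04 FPKM (adjusted p = 0.0524), and Mrpl24 had 31.2 ± 4.79 and 24.2 ± 2.29 (adjusted p = 0.109). Of 23 genes for import and membrane proteins, Hspe1, the partner of the matrix chaperonin, fell (79.5 ± 17.4 against 131 ± 16.3 FPKM, adjusted p = 0.0343), again called without TG1, TG3 or WT4 and not without any other mouse (adjusted p at most 0.0879). Vdac2, a channel of the outer membrane, had 55.3 ± 9.78 and 40.1 ± 8.73 FPKM (adjusted p = 0.130). By contrast, 83 of 88 cytosolic ribosomal protein genes were lower in HSD17B1TG by value (86 under library totals alone), with a median of -0.37. Of these, 2 fell past the threshold (Rpl22l1 and Rpl13a, with adjusted p-values of up to 0.0921 and 0.112 as a mouse was left out), against 6.16% of all genes in either direction. Under library totals alone 19 did, against 7.03%, and 4 with TG5 and WT4 left out, against 9.19%. At an unadjusted p under 0.05, 23 were lower, against 11.4% of all genes. DESeq2 called 15 lower, against 17.3% of all genes in either direction, and voom 21, against 19.3%. With 1 mouse left out, edgeR called 0 without TG2, TG4, TG5, WT2, WT3 or WT5, against at most 0.988% of all genes. It called 1 without WT1, against 1.73%, 4 without TG3, against 7.9%, and 5 without WT4, against 13.8%.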

How the data were processed

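The authors sequenced paired-end uterine libraries and mapped them in HISAT2 2.0.5 against GRCm38 as annotated by Ensembl. The program and strand setting of the counting are not given in the sources used here. The authors deposited 1 table with raw counts and FPKM for each mouse. The deposited FPKM divide by the tabled gene length and by a depth that follows the DESeq2 size factor rather than the total. Columns and further tables with the authors' own comparison and enrichments were not used.

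Counts of all 29268 genes were filtered with filterByExpr, scaled with TMM and tested in edgeR 4.0.16 (R 4.3.3) by the quasi-likelihood test, with no covariate, since the labels name no batch. Adjusted p-values are Benjamini-Hochberg values over the 16993 genes tested. DESeq2 1.42.0, voom with quality weights (limma 3.58.1), other scalings, no filter, gene length offsets and each mouse left out were alternatives. Every test across genes was also run on simulated counts. These were drawn for each gene on its own, so that check does not cover shifts that many genes of a mouse share, as in TG5 and WT4. Isoform shares were taken from FPKM and compared by exact permutation over the 252 ways to assign the mice. Mean deviations used log2 CPM with a prior count of 2.

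A count of 3, the limit that a count of 0 allows, corresponds to 0.129 to 0.203 CPM and covers counting error only. All mice had different counts (0 identical pairs), and the p-values measure the spread between these mice. Overlaps came from GENCODE M21 of the same build. Members named are the 5 highest and 5 lowest, those with the smallest p and the highest FPKM of each complex, the isoform pairs and members not tested, and of each pathway list the 2 with the smallest p. Further members are named by their role in a complex. The members and lists were chosen with earlier results of these data known.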

Additional observations from a re-analysis of the deposited data

Results flagged for a closer look

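TG5 and WT4 gave nearly all values that stood apart from the other 4 mice of their group by Dixon's criterion (gap over range above 0.71). Over the 82 members in both groups, 21 of 164 cases (12.8%) were marked, 10 with TG5 high, 10 with WT4 high and 1 with TG3 high, and chance marks about 1 in 20. The members share libraries and are not independent cases.

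Among the members named, TG5 stood above its group for Ndufb7 (24.7 FPKM), Ndufs7 (48.1), Cox7a1 (4.92), Cox7a2 (112), Cox8a (691) and Cox6a2 (0.472, from 5 counts). The share of Cox6a2 in its pair was 0.151% in TG5, from the same 5 counts. The mean deviation of all members was 0.235 in TG5, and that of complex I was 0.328. WT4 stood above its group for Ndufb7 (14.4 FPKM), Cox6a1 (369), Cox6b1 (225), Cox7a2 (108), Cox8a (593) and Ndufa4 (218).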

How the results depend on the processing

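The number of members past an adjusted p of 0.05 was 0 in edgeR, 4 in DESeq2 and 4 with voom. It was 1 (Cox6c) under library totals alone, against 7.03% of all genes, and also 1 (Cox6c) with mitochondrially encoded genes left out of the scaling, against 5.94%. It lay between 0 and 4 as each mouse was left out, with the 4 (Ndufa11 and Cox8a higher, Cox6b2 and Cox6c lower) of 81 members without WT4, against 13.8% of all genes, and was 3 of 81 without TG5 and WT4 together, against 9.19%, an alternative added after seeing the data. With the thresholds of the study, the number was 2 in DESeq2, the test that the study used, 0 in edgeR and 1 with voom. In edgeR it lay between 0 and 1 as each mouse was left out, with the 1 without WT4, against 8.87% of all genes. The median log2 fold change of the members was 0.059, moved to -0.127 under library totals alone, where all genes moved to -0.173, and lay between -0.041 (without TG5) and 0.136 (without WT4). The cause of these differences was not tested. With DESeq2 size factors, no filter and gene length offsets, 0 members were called, against 6.09%, 2.88% and 6.25% of all genes. No result reversed with a call on either side. The isoform shares were also taken on the log2 scale (pseudocount 0.1) and with each mouse left out. A single share could not pass the adjusted threshold with these numbers of mice, so unadjusted values are given. The exact permutation p of Cox6b2 ran from 0.0159 to 0.111 as each mouse was left out. The largest such p was 0.111 for Cox4i2 and 0.119 for Ndufa4l2. On the log2 scale with all mice, the exact permutation p was 0.0397 for Cox6b2, 0.0556 for Cox4i2 and 0.0794 for Ndufa4l2. No paired analysis was made because the labels do not name mice of the groups as pairs. Low counts limit Cox6a2 and Cox8b, for which no difference was detectable at this depth.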
